A study of Homo sapiens with 3 samples.

Results

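The end of the short arm of chromosome 1 was taken as all peaks whose summit lay in the first 5 Mb of the chromosome in the human genome build hg19. It held 1746 of the 177557 C11orf84 peaks and 1227 of the 153378 Spindlin1 peaks on chromosomes 1 to 22 and X, which are 0.983% and 0.8% of the lists. The members were chosen by summit position, and the end itself was selected on its numbers of C11orf84 and Spindlin1 peaks, so these numbers and their ratio are given as a description and not tested. The lists came from chromatin immunoprecipitation and sequencing (ChIP-seq) of untreated U2OS cells, a human osteosarcoma line, with an antibody against C11orf84 in 1 library and an antibody against Spindlin1 in 1 library. An Input library without antibody completes the series, and no file of it was used here. All 3 samples were fixed with 1% formaldehyde for 10 min. Since each antibody has a single library, nothing could be checked against replicates, and no p-value is given.

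Spindlin1 is a chromatin protein whose Tudor-like domains bind methylated tails of histone H3, the mark that many active gene starts carry. C11orf84, also named SPINDOC, is a protein known to bind Spindlin1 directly. A ChIP-seq peak is a short stretch where more immunoprecipitated fragments pile up than the local background accounts for. The end of the short arm of chromosome 1 is known to be rich in genes, and it carries PRDM16, which encodes a zinc finger transcription regulator known for directing the brown fat cell fate. By RefSeq order in a later build, the protein-coding neighbours of PRDM16 are TTC34 and ACTRT2 on the side of the arm tip and ARHGEF16 and MEGF6 on the other side. No other gene was placed on the peaks, because no hg19 genome or annotation was used here, and for the same reason no peak sequence is printed. The label U2OS could not be checked against marker genes either.

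Peaks of both proteins were packed densely here, and C11orf84 had more of them. C11orf84 had 349 peaks per Mb and Spindlin1 had 245, which are 5.79 and 4.71 times the mean of their lists over the 2942 Mb spanned by peaks. The ratio of C11orf84 to Spindlin1 peaks was 1.42 (95% counting interval 1.32 to 1.53), against 1.16 over the rest of the genome. All such intervals give counting error only and treat neighbouring peaks as independent, which they are not, so they are likely too narrow. In covered bases the ratio was higher, at 1.63, with 548 kb under C11orf84 peaks of 314 bp mean width and 337 kb under Spindlin1 peaks of 274 bp mean width. The corresponding ratio of bases over the rest of the genome was 1.28.

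The outermost stretch carried nothing. The first peak of either list lay 725 kb from the tip, where the C11orf84 peak chr1:724819-725094 (fold 6.38, 12 fragments at the summit) and the Spindlin1 peak chr1:724820-725000 (fold 6.67, 12 fragments) coincided with summits 5 bp apart. The fold is the authors' enrichment of a summit over its local background, and the fragments at the summit, called summit depth, were recovered from the deposited values. A second empty stretch of 109.7 kb followed at chr1:725095-834814. Beyond it, peaks of both proteins came in 3 dense blocks, set apart by thin stretches near 1.7 and 2.6 Mb. The dense blocks ended at about 3.7 Mb. Between 0.8 and 3.7 Mb there were 556 C11orf84 and 393 Spindlin1 peaks per Mb, and between 3.7 and 5 Mb there were 103 and 66.2. The longest inner stretch free of both lists was chr1:3840818-3999840, 159 kb. Runs of unknown bases exist in hg19, and whether they fall in these empty stretches was not checked.

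**Figure D1:**
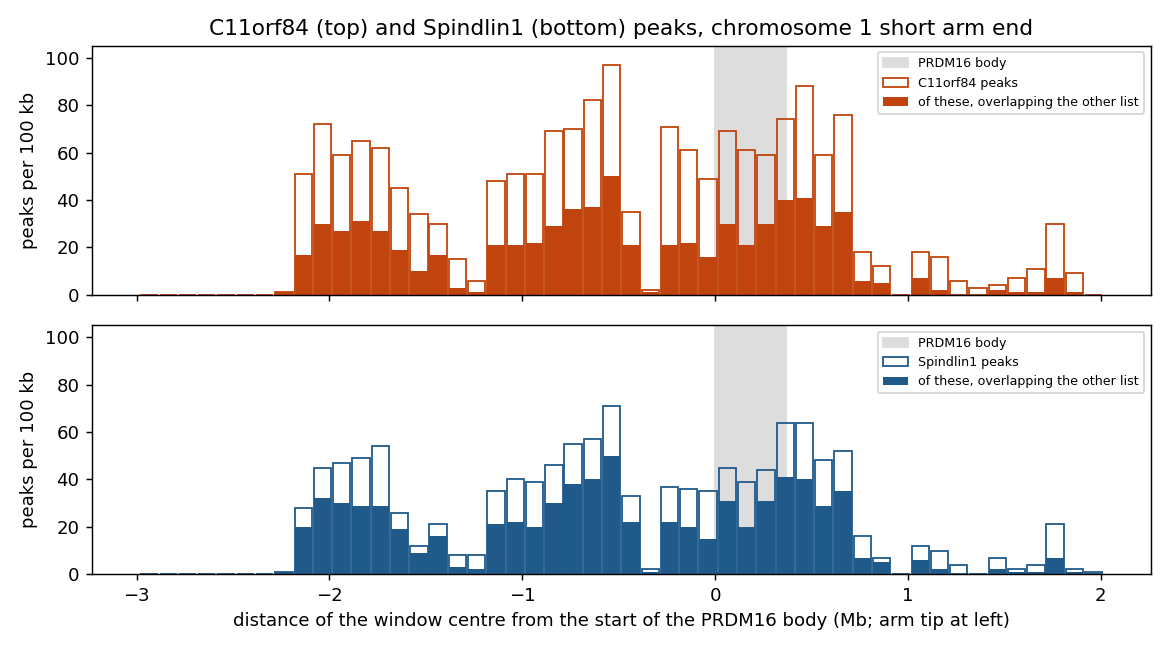
Peaks per 100 kb window across the end, against the distance of the window centre from the start of the PRDM16 body in Mb, with C11orf84 above and Spindlin1 below; filled bars are the peaks that overlap the other list, and the PRDM16 body is shaded. Both lists rise and fall together, with 97 C11orf84 and 71 Spindlin1 peaks in the fullest window.

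Along the end the lists followed the same profile. Of the 50 windows of 100 kb, 42 held a peak, and the fullest for both proteins was 2.4 to 2.5 Mb with 97 C11orf84 and 71 Spindlin1 peaks. The window at 3.4 to 3.5 Mb came next, with 88 and 64. C11orf84 was ahead in 37 windows, the numbers were equal in 2, and Spindlin1 was ahead in 3. In all 30 windows with at least 10 peaks in both lists C11orf84 was ahead, by ratios of 1.06 to 2.83 with a median of 1.41. The counting interval of 19 of these 30 ratios held 1, and that of 29 held the ratio of the whole end, so single windows hardly resolve a difference. The exception was 1.4 to 1.5 Mb, with 34 C11orf84 and 12 Spindlin1 peaks (ratio 2.83, 1.43 to 6.01). The lowest of the 30 ratios was at 2.5 to 2.6 Mb, with 35 C11orf84 and 33 Spindlin1 peaks.

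By single Mb from the tip inwards, the ratio was 1.68 (1.25 to 2.27), 1.38 (1.19 to 1.61), 1.43 (1.26 to 1.62), 1.36 (1.19 to 1.56) and 1.65 (1.2 to 2.30). These intervals overlap one another, so no gradient along the end was resolved. The last C11orf84 peak inside the limit was chr1:4847628-4847812 (fold 4.22, 8 fragments) and the first beyond it was chr1:5033036-5033242 (fold 6.87, 13 fragments). For Spindlin1 these were chr1:4930654-4930846 (fold 6.67, 12 fragments) and chr1:5279667-5279838 (fold 7.18, 13 fragments). The 5 Mb limit therefore fell in a sparse stretch and split no cluster.

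Peaks at the end of the short arm were many but shallow. Median summit depth was 10 fragments for both C11orf84 (interquartile range 9 to 11) and Spindlin1 (9 to 11), against 12 (10 to 15) and 11 (10 to 14) over the rest of the genome. A summit depth of at least 15 fragments was reached by 51 C11orf84 peaks (2.92%, 95% interval 2.18 to 3.82) and 24 Spindlin1 peaks (1.96%, 1.26 to 2.90), where the whole lists stood at 26.2% and 21%. The deepest C11orf84 summit had 20 fragments and the deepest Spindlin1 summit 19. Of the C11orf84 peaks 35 (2.01%), and of the Spindlin1 peaks 16 (1.30%), had a −log10 q of 10 or more, against 15.7% and 11.8% of the whole lists.

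**Figure D2:**
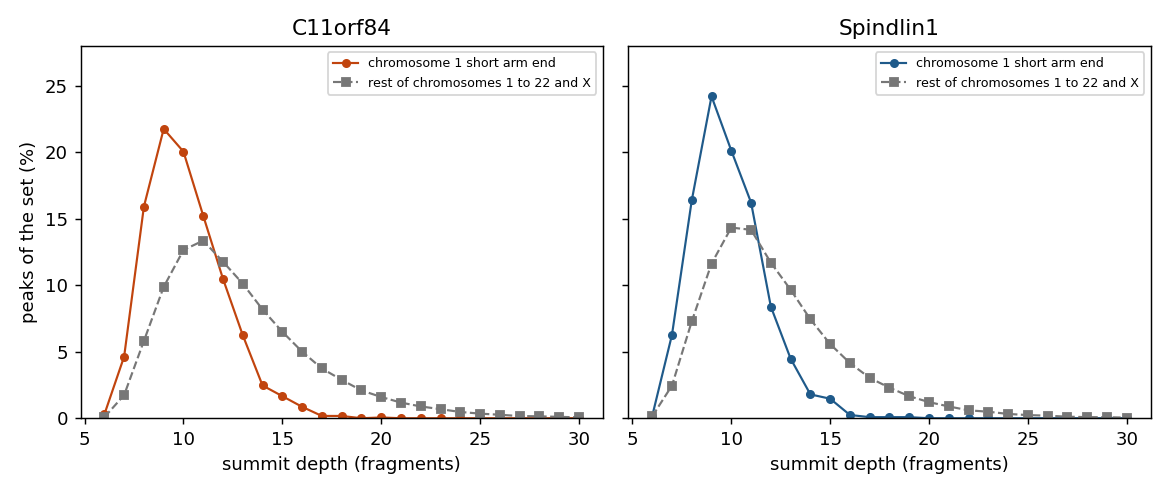
Share of peaks (%) at each summit depth in fragments, for C11orf84 on the left and Spindlin1 on the right, in the chromosome 1 short arm end (circles) and in the rest of chromosomes 1 to 22 and X (squares). In the end both lists peak at 9 fragments, with 21.8% of C11orf84 and 24.2% of Spindlin1 peaks, and few peaks reach 15.

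The local background was low as well. The lowest background in each list, called the floor, applied to 1455 C11orf84 peaks (83.3%, 81.5 to 85.1) and 1014 Spindlin1 peaks (82.6%, 80.4 to 84.7) of the end, against 49.3% and 48.2% of the whole lists. Only 12 C11orf84 peaks (0.687%) and 11 Spindlin1 peaks (0.897%) stood on a background 2 or more times the floor, against 9.19% and 9.07%. The highest for C11orf84 was 2.73 times the floor, reached for example at chr1:2518995-2519416. The highest for Spindlin1 was 3.995 times the floor, at chr1:1051572-1052087. At the floor, the fold of a peak is a function of its summit depth alone, so for most peaks of the end these are the same measurement.

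The overlap between the lists was lower than over the genome. Of the C11orf84 peaks, 738 (42.3%, 39.9 to 44.6) shared at least 1 bp with a Spindlin1 peak, against 57.6% of the whole list. Of the Spindlin1 peaks, 750 (61.1%, 58.3 to 63.9) shared at least 1 bp with a C11orf84 peak, against 69.7%. With at least 50% of both intervals covered, 380 peaks of each list remained, 21.8% of C11orf84 and 31% of Spindlin1 peaks, against 41.1% and 47.5%. In bases, 153 kb were common to both, 28% of the C11orf84 and 45.6% of the Spindlin1 territory, against 51.2% and 65.9% over the genome. Over the rest of the genome shallow peaks of both lists overlapped less often than deep ones. The part of depth in the low overlap was not tested beyond the values at matched depth given next. Both lists were also denser here, at 5.79 and 4.71 times their genome means, and dense peaks meet more often whatever the proteins do. Overlap was not matched for density, so these shares do not compare co-location with the genome.

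At matched depth the overlap of shallow C11orf84 peaks came close to that of the rest of the genome. Spindlin1 peaks of at most 9 fragments, pooled on any background, overlapped more often than those of the rest. In some of the deeper classes the overlap of both lists stood below that of the rest. Peak density was not matched and was higher in the end, so none of these shares compares co-location. Among peaks at the floor, C11orf84 peaks of 9 fragments overlapped Spindlin1 in 38.4% (33.2 to 43.9) in the end and 40.7% elsewhere. Those of 13 or 14 fragments overlapped in 54.1% (44.3 to 63.6) in the end and 66.5% elsewhere. For Spindlin1 the share hardly moved with depth, at 61.5% (53.9 to 68.6) for 8 fragments, 59.4% (52.4 to 66.2) for 10 and 54.5% (40.6 to 68.0) for 13 or 14. Elsewhere it climbed through 55.2%, 63.2% and 80.5%. On any background, Spindlin1 peaks of at most 9 fragments overlapped in 61.5% (57.4 to 65.5) in the end and 54.6% elsewhere. For C11orf84 these shares were 37.8% (34.3 to 41.4) and 38.1%. Among peaks at the floor, in each list the value of the rest of the genome lay above the interval of the end in 3 of 8 depth classes and inside it in the other 5. At 15 or more fragments the end had only 29 C11orf84 and 14 Spindlin1 peaks at the floor, so little can be read from that class.

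**Figure D3:**
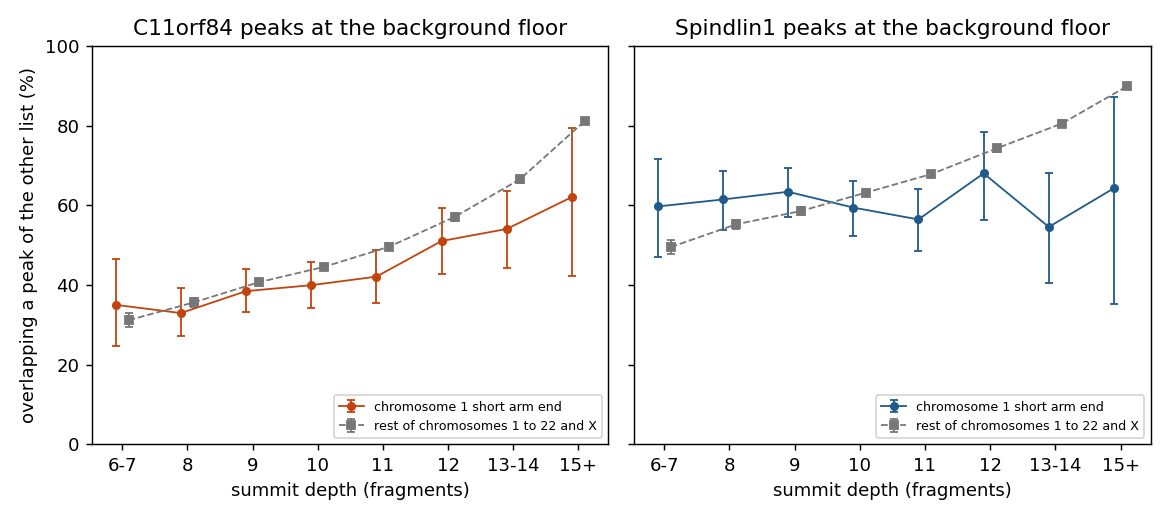
Share of peaks (%) at the background floor that overlap the other list, by summit depth in fragments, for C11orf84 on the left and Spindlin1 on the right; circles are the chromosome 1 short arm end, squares the rest of chromosomes 1 to 22 and X, and bars exact 95% counting intervals. Spindlin1 in the end stays between 54.5% and 68.0%, while elsewhere it climbs to 89.9%.

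Where single peaks of the lists met, their summits lay farther apart than over the rest of the genome, as at some other arm ends. In 586 cases a C11orf84 and a Spindlin1 peak overlapped each other and no further peak. C11orf84 was deeper in 299 of them (51.0%, 46.9 to 55.1), Spindlin1 in 194, and the depths were equal in 93. Over the rest of the genome C11orf84 was deeper in 53.8% of such pairs, which lies inside that interval. Depths were not scaled for read totals, which are unknown, so the deeper list is not a measure of more protein. The median distance between the summits of a pair was 87 bp, against 46 bp in the 81613 such pairs of the rest of the genome. These pairs were not matched for depth or for peak density, which holds for the correlation below as well. Over all overlapping C11orf84 peaks, the median distance to the nearest Spindlin1 summit was 94 bp in the end. It was also 94 bp at the end of 19p, 88 bp at 11p and 58 bp at the deeper end of 12q. Summit depths of the pairs had a Pearson correlation of 0.21 in the end and 0.73 elsewhere. Sites within a library are not replicates, and the depths in the end span a narrow range, so the correlation is given as a description. In 62 cases a C11orf84 peak overlapped more than 1 Spindlin1 peak (3.55%, against 5.56% of the list), and in 52 a Spindlin1 peak overlapped more than 1 C11orf84 peak (4.24%, against 4.19%).

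Overlapping peaks pair off in near-equal numbers, so the surplus of C11orf84 peaks had to lie in those without overlap. The ratio of unshared peaks follows from the total ratio, on which the end was selected, and from the overlap. It is given as a description. The end had 1008 unshared C11orf84 and 477 unshared Spindlin1 peaks, a ratio of 2.11 (1.89 to 2.36), against 1.61 over the rest of the genome. Shared peaks, which by construction come in near-equal numbers, stood at 738 and 750. Merging all overlapping intervals gave 2170 regions. Of these, 685 (31.6%) held both proteins, 1008 (46.5%) C11orf84 only and 477 (22%) Spindlin1 only. Elsewhere the shares were 44.1%, 34.5% and 21.4%, so the share with Spindlin1 alone differed by under 1 percentage point and the share with C11orf84 alone was larger in the end.

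Unshared did not mean isolated. The end was selected on its peak numbers, and dense peaks of 2 lists lie close to each other whatever the proteins do. The distances and clusters below are therefore a description, and co-location was not tested. Of the unshared peaks, 43.0% of C11orf84 and 59.1% of Spindlin1 lay at most 500 bp from a peak of the other list, against 30.9% and 33.4% over the rest of the genome. Only 48 C11orf84 peaks (2.75%, against 10.9% of the whole list) and 11 Spindlin1 peaks (0.897%, against 8.36%) had no peak of the other list within 5 kb. When peaks of both lists at most 1 kb apart were joined, 643 clusters formed, and 395 of them (61.4%) held both proteins, against 50.6% elsewhere. The fullest clusters were chr1:2393930-2415052 and chr1:3435573-3457852, each with 26 C11orf84 and 21 Spindlin1 peaks. The next was chr1:2819870-2835844, with 18 and 11. In the sparse part from 4 to 5 Mb overlap was lower, at 21 of 104 C11orf84 peaks (20.2%, 13 to 29.2) and 20 of 63 Spindlin1 peaks (31.7%, 20.6 to 44.7), and median spacing of neighbouring summits was wider, at 3334 bp for C11orf84 and 5968 bp for Spindlin1, against 1021 and 1376 bp over the whole end.

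The leading C11orf84 peaks were modest within their own list. The highest fold, 10.3 at 20 fragments, belonged to chr1:861113-861881, which ranked 2014 by fold among all C11orf84 peaks and overlapped 3 Spindlin1 peaks, the strongest with a fold of 5.65 at 10 fragments. Next came chr1:1986052-1986309 (fold 9.33, 18 fragments), with a Spindlin1 peak of fold 5.13 whose summit was 1 bp away. At the same fold and depth, chr1:2583670-2583893 met a Spindlin1 peak of fold 7.18. Of the 10 C11orf84 peaks of highest fold, those at chr1:3480289-3480536 (fold 8.84, 17 fragments), chr1:1890340-1890570 and chr1:3338884-3339192 (both fold 8.35, 16 fragments) overlapped no Spindlin1 peak, although one lay 239, 303 and 135 bp away.

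The highest Spindlin1 fold was 9.75 at 18 fragments, at chr1:3827295-3827967, rank 2266 in its list. The C11orf84 peak there, chr1:3827323-3828186, had a fold of 8.35 at 16 fragments with its summit 24 bp away. The next Spindlin1 peak, chr1:1889812-1890036 (fold 9.24, 17 fragments), overlapped a C11orf84 peak of fold 7.36 at 14 fragments and lay just before the unshared C11orf84 peak at chr1:1890340-1890570 named above. At chr1:995043-995335 a Spindlin1 peak of fold 8.72 and 16 fragments stood 68 bp from a C11orf84 peak, chr1:994665-994974, whose background was 2.73 times the floor and whose fold was 3.40. The deepest Spindlin1 summit, 19 fragments at chr1:1406808-1407154, had a fold of 7.62 on a background 1.71 times the floor. The C11orf84 peak there had 16 fragments on 1.64 times the floor. Folds of the lists are each relative to their own background and are not compared in size.

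Wide peaks were few. At least 1 kb was reached by 11 C11orf84 peaks (0.630%, against 2.42% of the list). It was reached by 0 of 1227 Spindlin1 peaks, which allows a share of up to 0.300%, against 1.48% of that list. The widest C11orf84 peak was chr1:3417960-3419242, 1283 bp with a fold of 8.35, and it overlapped 2 Spindlin1 peaks. One of these, chr1:3417284-3418115, was itself the fifth widest of its list in the end at 832 bp. The widest Spindlin1 peak was chr1:3618756-3619648, 893 bp with a fold of 5.13 at 9 fragments, and it met a C11orf84 peak of 217 bp and fold 6.38. The shortest width in a list was held by 291 C11orf84 peaks at 180 bp (16.7%, against 13.5% of the list). For Spindlin1 it was held by 216 peaks at 172 bp (17.6%, against 15.2%).

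Peaks far from the other list lay mostly beyond 3.7 Mb, where the end is sparse, with 30 of the 48 C11orf84 and 7 of the 11 Spindlin1 peaks. The C11orf84 peak of highest fold without a Spindlin1 peak within 5 kb was chr1:4654389-4654838 (fold 7.85, 15 fragments), 5525 bp from the nearest. It was followed by chr1:1419705-1419929 (fold 6.87, 13 fragments, 12550 bp away) and chr1:4131832-4132024 with the same fold and depth. For Spindlin1 the leading ones were chr1:3802733-3802934, chr1:4725586-4725772 and chr1:4930654-4930846, each with a fold of 6.67 at 12 fragments. The last of these stood 82841 bp from any C11orf84 peak. A missing peak is the absence of a call at this depth, not a measure of absent protein.

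The PRDM16 body, taken as chr1:2986000-3355000, carried peaks of both proteins in each of 10 equal stretches, without a dominant site. C11orf84 peaks covered 73.9 kb and Spindlin1 peaks 47.4 kb of its 369 kb, 99.0 kb when merged, so most of the gene lay under no peak. It held 239 C11orf84 peaks (648 per Mb) and 171 Spindlin1 peaks (463 per Mb). The ratio was 1.40 (1.14 to 1.71), inside the interval of the remaining end (1.43, 1.32 to 1.55), so a difference between the gene and its surroundings was not resolved. Overlap was likewise close, at 43.1% (36.7 to 49.6) of C11orf84 peaks and 61.4% (53.7 to 68.7) of Spindlin1 peaks, against 42.1% and 61.1% in the remaining end. Median summit depth was 10 fragments in both lists, and no summit exceeded 16. Flanks of the same length of 369 kb held 169 C11orf84 and 104 Spindlin1 peaks on the side of the tip, and 265 and 196 on the other side. The count in the gene thus lay between those of its flanks in both lists.

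**Figure D4:**
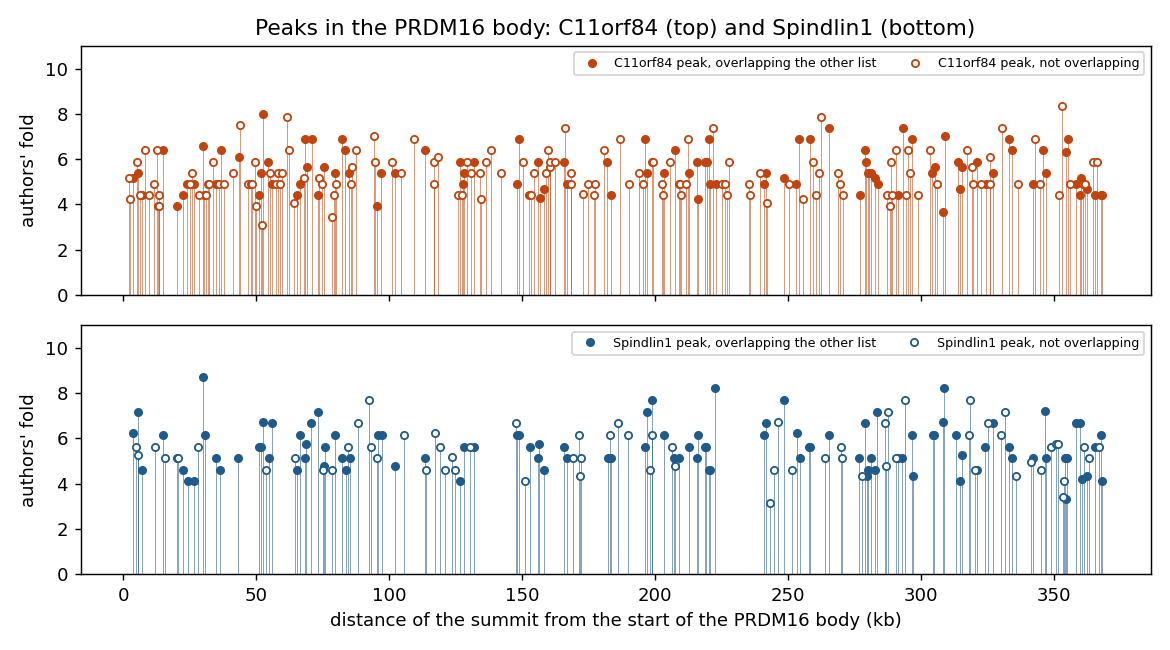
The authors' fold of each peak in the PRDM16 body against the distance of its summit from the start of the body in kb, with C11orf84 above and Spindlin1 below; filled points overlap the other list and open points do not. Peaks of both proteins are spread along the gene, with a highest fold of 8.35 for C11orf84 and 8.72 for Spindlin1.

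Inside PRDM16 differences in balance between stretches were not resolved. In 10 equal stretches of 36.9 kb from the start, C11orf84 had between 17 and 31 peaks and Spindlin1 between 11 and 26. The second stretch was the most uneven, with 31 C11orf84 and 14 Spindlin1 peaks (ratio 2.21, 1.14 to 4.51). The last was the lowest in ratio, with 24 C11orf84 and 26 Spindlin1 peaks (0.923, 0.507 to 1.67). These intervals overlap. Directly before the start of the body lay the C11orf84 peak chr1:2985324-2985664 (fold 6.87, 13 fragments), 336 bp away and without Spindlin1 overlap. The nearest Spindlin1 peak there was chr1:2984316-2984487 (fold 4.62, 8 fragments). The limits of the body are approximate, so distances to the gene start are too. The promoter of PRDM16 is not printed.

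Both shared and unshared peaks were among those of highest fold in PRDM16. For C11orf84 the first were chr1:3338884-3339192 (fold 8.35, unshared), chr1:3038595-3038883 (fold 7.98, 16 fragments, shared with a Spindlin1 peak of fold 6.72), chr1:3047415-3047714 and chr1:3248198-3248721 (both fold 7.85, 15 fragments, unshared). For Spindlin1 the first was chr1:3015773-3016276 (fold 8.72, 16 fragments), where C11orf84 had a fold of 6.57 at 13 fragments and a summit 40 bp away. It was followed by chr1:3208554-3209128 and chr1:3294476-3295336 (both fold 8.21, 15 fragments), which overlapped C11orf84 peaks of fold 4.91 and 7.04. The C11orf84 peak of fold 7.04, chr1:3294403-3295403, was the only one of at least 1 kb in the gene. None of the 171 Spindlin1 peaks lacked a C11orf84 peak within 5 kb, which allows a share of up to 2.13%, and 3 C11orf84 peaks lacked a Spindlin1 peak. At 648 C11orf84 peaks per Mb in the gene, these counts describe density and not co-location.

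Set against other chromosome ends, the end of 1p was among those with a high ratio and shallow peaks. Among the 35 arm ends with at least 100 peaks in both lists, of 41 in all, it ranked 12 in the number of C11orf84 peaks, 13 in Spindlin1 peaks and 7 in the ratio between them. Its mean C11orf84 summit depth, 10.13 fragments, was the lowest of the 35, and its mean Spindlin1 depth, 9.88 fragments, was second lowest. The next C11orf84 means were close, at 10.19 for the long arm end of chromosome 10 and 10.27 for 19p, so depth does not set 1p apart. The end of 1p ranked 3 in the share of peaks at the floor in both lists. The 14 ends with a median C11orf84 depth of at most 10 fragments all had ratios between 1.31 and 1.52, and the 21 deeper ends between 0.918 and 1.33. Over the 35 ends the Spearman correlation of ratio with mean C11orf84 depth was −0.90, a description only, since all ends share the same libraries.

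**Figure D5:**
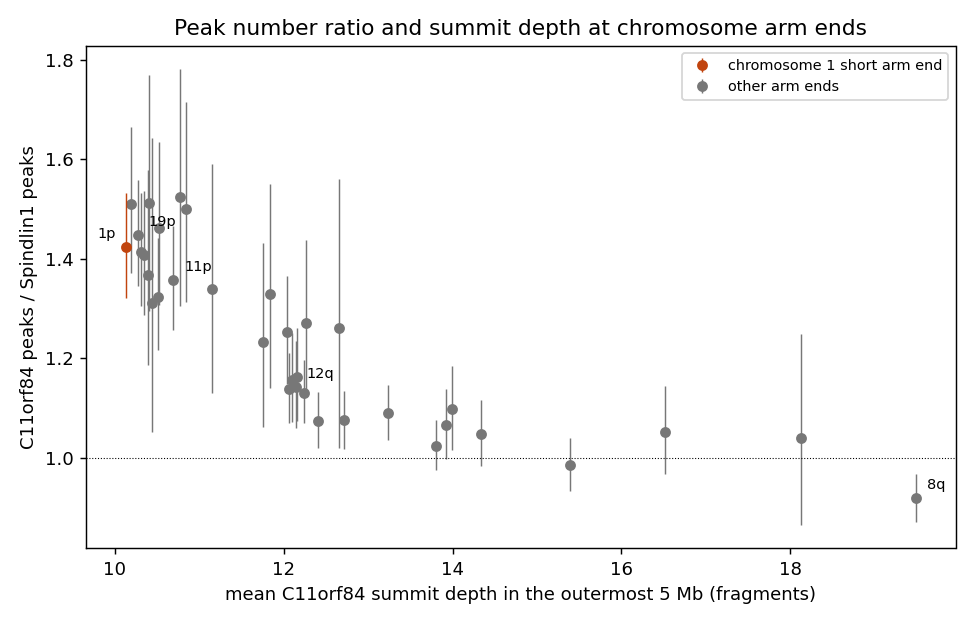
Ratio of C11orf84 to Spindlin1 peaks in the outermost 5 Mb against mean C11orf84 summit depth in fragments, for the chromosome 1 short arm end (coloured) and 34 other arm ends (grey), with 95% counting intervals of the ratio. The chromosome 1 short arm end lies at the lowest depth, 10.1 fragments, with a ratio of 1.42 among ends of similar depth and ratio.

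Of the 3 ends closest to it in total peak number, that of chromosome 19 came close to it in depth, ratio and overlap. That of chromosome 12 differed in all of these. The short arm end of chromosome 19, with 1762 C11orf84 and 1217 Spindlin1 peaks, had a ratio of 1.45 (1.35 to 1.56), mean depths of 10.3 and 9.96 fragments, and overlaps of 40.2% and 58.8%. The short arm end of chromosome 11, with 1561 and 1150 peaks, had a ratio of 1.36 (1.26 to 1.47) at 10.7 and 10.3 fragments. Its overlaps were 49.3% and 69.0%. The long arm end of chromosome 12, with 1422 and 1244 peaks, was deeper, at 12.1 and 11.5 fragments, and had a ratio of 1.14 (1.06 to 1.23) and overlaps of 63.6% and 78.6%. The part of depth in the ratio was not tested. The end was selected on this ratio, so its values by depth class are a description from the same counts and support nothing about depth. Within the end of 1p, among peaks at the floor, the ratio was 1.39 (1.16 to 1.67) at 10 fragments, against 1.07 at that depth elsewhere, and 1.96 (1.47 to 2.62) at 12 fragments, against 1.24.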

How the data were processed

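The authors deposited 1 peak list for the C11orf84 library and 1 for the Spindlin1 library. The submitters' processing notes name Bowtie 1.2.2 and hg19. Which program called the peaks, at what threshold and against which control is not given in the sources used here. The deposited fold (a ratio) of a peak compares its summit with a local background, and the authors also give its −log10 p and −log10 q. The deposited score equalled 10 times the −log10 q, cut to a whole number, in every peak and was not used further. Read totals are unknown. Positions are printed counting from 1.

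Summit depth k and local background λ, both in fragments, were solved from fold = (k + 1)/(λ + 1) and from p as the Poisson chance of exceeding k. A whole k met both values of all peaks, with errors of at most 0.000148 (C11orf84) and 0.000174 (Spindlin1) in −log10 p, and no peak of the end was ambiguous. The background floor was 1.04 and 0.949 fragments, taken within 0.1%. Overlap needed 1 bp. Shares carry exact Clopper-Pearson 95% intervals, and ratios the interval of the C11orf84 part of all peaks. The outermost 5 Mb were counted from position 0 for a short arm and back from the last peak for a long arm. Short arms of acrocentric chromosomes, whose centromere lies near a tip, were left out. The PRDM16 limits are those of the rule that chose the end. Regions named are the 10 of highest fold per list, the 5 widest, the 8 of highest fold farther than 5 kb from the other list and the 5 of highest fold in PRDM16, from which the leading ones are printed. Deepest summits, highest backgrounds and 1 kb clusters were added after values were seen. The members and lists were chosen with earlier results of these data known. The recovery and overlap steps were tested on simulated data. The tools were SciPy 1.17.1, NumPy 2.4.6 and pandas 2.3.3 under Python 3.11.15, with figures by matplotlib 3.10.9.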

Additional observations from a re-analysis of the deposited data

How the results depend on the processing

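The ratio of 1.42 stayed within its interval when raised backgrounds or the PRDM16 body were left out, when whole intervals had to lie inside, and with limits of 2, 3 or 10 Mb. Those limits held 539, 1126 and 2660 C11orf84 and 374, 785 and 1925 Spindlin1 peaks. Depth limits the stricter settings. Keeping peaks of −log10 q 10 or more, 35 C11orf84 and 16 Spindlin1 peaks remained, with ratios of 2.19 in peaks and 3.04 in bases, and 5.71% and 12.5% shared. With at least 15 fragments there were 51 and 24, with ratios of 2.125 and 3.06, and 9.80% and 16.7% shared. In PRDM16 these settings left 4 and 3 peaks, or 7 and 4 (ratio 1.75), with 0.0% shared in each list, too few to read. These low shares come from thinning both lists. Against the full other list, 68.6% of the C11orf84 and 68.8% of the Spindlin1 peaks with −log10 q 10 or more overlapped, and 58.8% and 70.8% of those with at least 15 fragments. The strict ratios rest on few peaks and are not comparable with the genome ratio of all peaks. Over the whole lists 27877 C11orf84 and 18068 Spindlin1 peaks met the q limit, and 46505 and 32238 the depth limit. At the floor with at least 15 fragments, the ratio was 2.07 (1.06 to 4.24) in the end and 1.675 elsewhere. Asking for 50% of both intervals lowered the shares to 21.8% and 31% in the end and to 25.5% and 35.7% in PRDM16. Summits at most 200 bp apart gave 32.7%, 46.5%, 34.3% and 48.5% in that order. Keeping only peaks at the floor in both lists, chosen after seeing the data, gave 38.3% and 55.8%. This setting also thins both lists, so the lower shares do not show that peaks at the floor overlap less. Counting 5 Mb from the first peak, likewise chosen after seeing the data, changed no value beyond its interval. No paired analysis was possible because each antibody has 1 library.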

Other observations

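The stretch from 5 to 10 Mb of chromosome 1, beyond the limit of the end, held 914 C11orf84 and 698 Spindlin1 peaks, or 183 and 140 per Mb, with 45.2% (41.9 to 48.5) and 62.2% (58.5 to 65.8) shared. Its first Mb was sparse, with 97 C11orf84 and 68 Spindlin1 peaks. Median summit depth was 11 fragments for C11orf84 and 10 for Spindlin1, and 71.6% and 69.3% of peaks stood at the floor, fewer than the 83.3% and 82.6% of the outermost 5 Mb.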
